A study of Mus musculus with 14 samples.

Results

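The genes described here are 10 genes used as markers of the stem cells at the base of the colonic crypt: Lgr5, Ascl2, Lrig1, Tnfrsf19, Cdca7, Sox9, Rgmb, Cd44, Prom1 and Slc12a2. They were chosen by name from 37680 genes in the count table, and all 10 were matched and passed the filter on low counts. Their transcript levels were measured by RNA-seq in 14 libraries of colon epithelium from adult mice of a C57/BL6-enriched background. WT mice and mice with an epithelial Smad4 deletion (Smad4 KO) drank water (4 WT and 4 KO libraries) or 2.5% dextran sulfate sodium (DSS) for 3 d (3 WT and 3 KO libraries). Given in drinking water, DSS damages the lining of the colon. Smad4 KO mice carry floxed Smad4 alleles and the tamoxifen-inducible Villin-Cre ERT2 transgene, which is active in epithelial cells of the intestine, so Smad4 in other cell types is left in place. The study's methods place the transgene in the conditional mutants and in controls, and whether the WT mice received tamoxifen is not given in the sources used here. The epithelium came from the whole colon after EDTA chelation, and mRNA was enriched by its poly(A) tails.

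Stem cells at the base of colonic crypts divide continuously and renew the epithelium, and their daughters mature into absorptive colonocytes and secretory cells as they move toward the surface. Wnt ligands, amplified by R-spondins, maintain the stem cell state, while bone morphogenetic protein (BMP) signals, which act through Smad4, are strongest near the surface and favour differentiation. Lgr5 is an R-spondin receptor and the best known marker of these cells, and Ascl2 is the Wnt-responsive transcription factor that specifies their state.

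In mm9, the build of the counts, all 10 genes are protein coding in the GENCODE M1 annotation. Lgr5 (ENSMUSG00000020140) lies on the minus strand at chr10:114887367-115024836 and Ascl2 (ENSMUSG00000009248) on the minus strand at chr7:150152727-150155169. Gene models on the opposite strand overlap 4 of the 10 genes (Lgr5, Lrig1, Prom1 and Cd44), and 6 have no overlapping gene. Whether reads were counted by strand is not given in the sources used here, so reads of these 4 genes and of their antisense partners may not have been told apart.

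RefSeq promoter sequences of build GRCm38.p6, which run from 250 bases before to 50 bases after a transcription start, were matched for 7 of the 10 genes, with 11 starts in all. They were not found for Lgr5, Sox9 and Slc12a2. The promoter of Ascl2 is shown because Ascl2 had the lowest log2 fold change of the members between genotypes under both treatments. A promoter of Tnfrsf19 is shown because it was the only one of the 11 with a match to the TCF core (CTTTGAT or CTTTGAA, either strand). This core is the sequence bound by the transcription factors of the Wnt pathway. Capitals mark the TCF core and the E-box CAGCTG, a sequence of the kind bound by Ascl2-like factors. The E-box reads the same on both strands and does not overlap the TCF core.
Ascl2, chr7:142969215-142969514, minus strand: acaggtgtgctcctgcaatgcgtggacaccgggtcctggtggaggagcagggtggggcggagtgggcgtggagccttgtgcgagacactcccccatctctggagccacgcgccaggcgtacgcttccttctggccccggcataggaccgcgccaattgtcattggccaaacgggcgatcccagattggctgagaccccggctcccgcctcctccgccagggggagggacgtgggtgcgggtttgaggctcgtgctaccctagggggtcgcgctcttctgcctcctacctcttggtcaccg
Tnfrsf19, chr14:61037938-61038237, minus strand: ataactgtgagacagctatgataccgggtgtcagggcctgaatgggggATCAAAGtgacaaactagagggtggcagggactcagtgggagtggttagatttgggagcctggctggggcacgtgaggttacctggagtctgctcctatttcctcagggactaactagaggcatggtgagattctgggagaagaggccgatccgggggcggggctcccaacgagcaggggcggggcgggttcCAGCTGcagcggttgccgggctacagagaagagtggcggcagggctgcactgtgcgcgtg
The TCF core of Tnfrsf19 starts at position -202 and the E-box at -10, counted from the transcription start. The Ascl2 window held neither, and it also held neither CAGAC, the short box that Smad proteins bind, nor GGCGCC, another Smad site, on either strand. Of all 32851 promoters in the table, 8.65% held the TCF core, 16.3% the E-box, 49.6% CAGAC and 11.9% GGCGCC. In the Tnfrsf19 window CAGAC matched at -115, not in capitals, and GGCGCC did not match. Among the 11 windows CAGAC was otherwise found only in windows of Rgmb. A match is a description of the letters in the window and not a binding site.

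Total counts were between 12882827 and 26087231 per library, and mitochondrial genes took 4.05% to 32.8% of them, with 30.6% and 32.8% in WT water replicates 3 and 4, 21.4% in Smad4 KO water replicate 4 and less in all others. Normalized counts below are scaled by the TMM method to the mean library size. Smad4 had 2372 to 3188 normalized counts in WT on water, 3407 to 3650 in WT after DSS and 808 to 878 in Smad4 KO after DSS. In the KO group on water, replicates 2, 3 and 4 had 741, 936 and 702, whereas the library labelled Smad4 KO water replicate 1 had 3164, within the range of WT. The study's figure legends count fewer replicates in this group than there are libraries labelled so, and do not say which was left out. It stays in its labelled group here, and values without it are given for part of the results that include it. Epithelial markers were abundant in every library, since 8 such genes (among them Epcam and Vil1) summed to between 235154 and 373302 normalized counts.

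Per kilobase of exon, Slc12a2 and Prom1 had the highest levels of the 10 genes and Lgr5 and Tnfrsf19 the lowest in all 4 groups. In WT on water Slc12a2 had the highest level, with 1200 ± 196 (SD, n = 4) normalized counts per kilobase, followed by Prom1 with 916 ± 193. Rgmb, Lrig1, Sox9 and Cdca7 formed a middle tier between 518 and 391 normalized counts per kilobase whose neighbours overlapped in their ranges. Ascl2 (210 ± 33.9) and Cd44 (207 ± 90.8) came next and overlapped, followed after a gap by Lgr5 (20.5 ± 4.74) and Tnfrsf19 (9.50 ± 5.39), which also overlapped. In Smad4 KO on water the order was Slc12a2, Prom1, Lrig1, Sox9, Rgmb, Cdca7, Cd44, Ascl2, Lgr5 and Tnfrsf19, so that Ascl2 stood below Cd44, and the ranges of Ascl2 and Lgr5 overlapped with and without the library labelled replicate 1. In WT after DSS the same order held except that Rgmb came after Cdca7, as it did in KO after DSS. In Smad4 KO, Ascl2 and Lgr5 had means of 84.6 and 38.7 normalized counts per kilobase on water with all 4 libraries and 52.1 and 41.0 without replicate 1. After DSS they had 40.0 ± 7.81 and 24.1 ± 1.04 (SD, n = 3), with ranges that did not overlap.

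**Figure D1:**
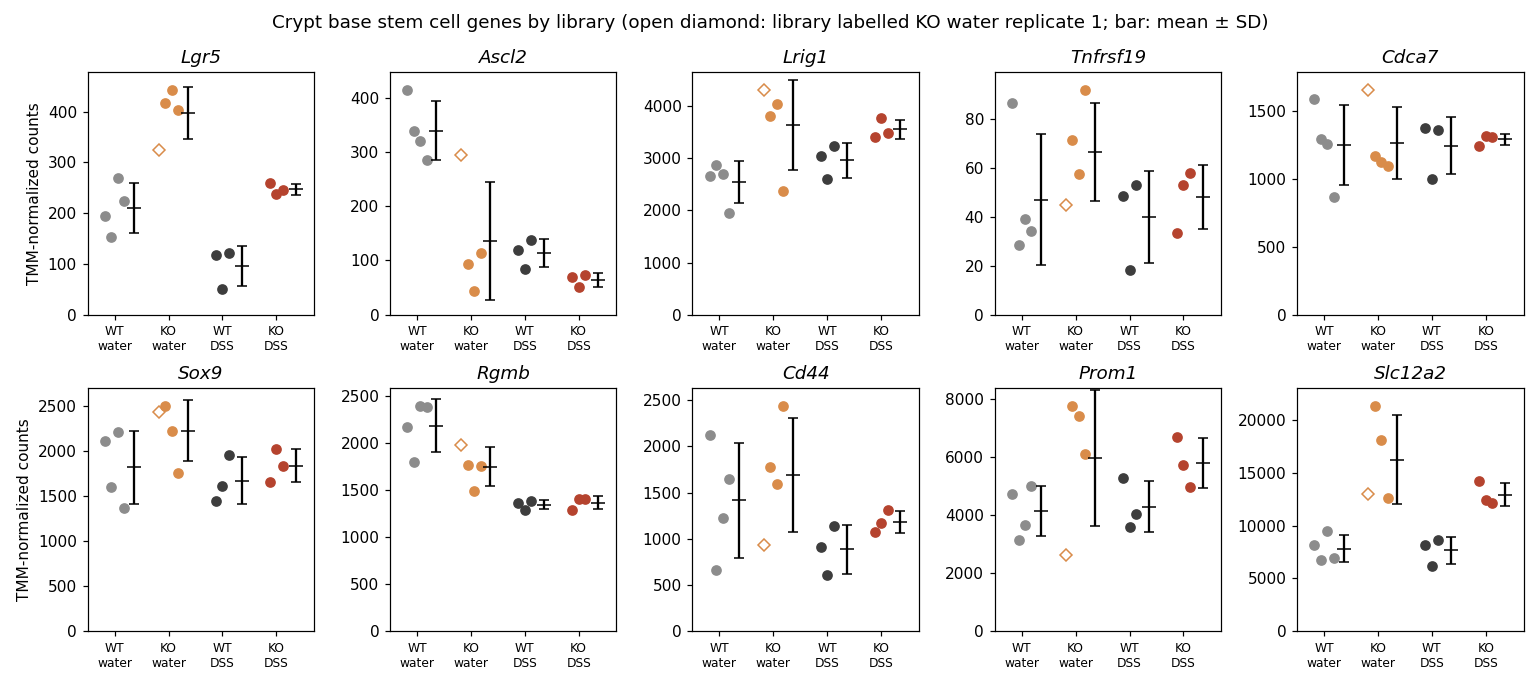
TMM-normalized counts (y axis, from 0) of the 10 genes in each of the 14 libraries, by group (x axis), with the mean and SD of each group as a bar. Lgr5 and Slc12a2 lie higher in every Smad4 KO library than in any WT library of the same treatment, and the open diamond, the library labelled KO water replicate 1, lies with WT for Ascl2.

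Lgr5 transcripts were more abundant in every Smad4 KO library than in any WT library under both treatments. On water, Lgr5 had 195, 154, 269 and 225 normalized counts in the WT libraries and 324, 416, 443 and 403 in the KO libraries, the first of these being the library labelled replicate 1. After DSS it had 117, 51.2 and 122 in WT and 259, 238 and 245 in KO. The lowest KO value was thus above the highest WT value each time. The log2 fold change was 0.92 on water (SE 0.22, adjusted p = 0.15, edgeR) and 1.35 after DSS (SE 0.28, adjusted p = 0.069, edgeR), or 1.89-fold and 2.55-fold, and neither passed the threshold of 0.05. Leaving out 1 library at a time gave edgeR adjusted p-values of 0.035 to 0.38 on water and 0.042 to 0.20 after DSS. Lgr5 passed only without KO replicate 4 on water and without WT replicate 2 after DSS. It also passed after DSS when the count filter was dropped (edgeR adjusted p = 0.0049). In edgeR models of 14 and 13 libraries Lgr5 passed on water (adjusted p = 0.036 and 0.035), and no member passed after DSS. DESeq2 on the same libraries passed Lgr5 on water (adjusted p = 0.010) and after DSS (adjusted p = 9.8e-05). Without the library labelled replicate 1 the edgeR log2 fold change on water was 1.01 (SE 0.24, adjusted p = 0.14). Raw counts were 105 to 538 on water and 56 to 247 after DSS. In bulk epithelium, more cells of a type and more transcript per cell cannot be told apart.

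Ascl2 went the other way. On water it had 414, 338, 319 and 285 normalized counts in WT, and 94.3, 44.5 and 113 in KO replicates 2, 3 and 4. The library labelled KO water replicate 1 had 293, and was the only KO library to reach the WT range. After DSS the WT libraries had 119, 85.1 and 137 and the KO libraries 69.1, 50.3 and 74.2, with no overlap. On water the log2 fold change was -1.31 (SE 0.44, edgeR adjusted p = 0.17) with all 4 KO libraries. Without replicate 1 it was -2.02 (SE 0.34, edgeR adjusted p = 0.072), or 4.04-fold lower in KO. DESeq2 with all 8 libraries passed it (adjusted p = 0.043), as did an edgeR model of the 13 libraries without replicate 1 (adjusted p = 0.0060). After DSS the log2 fold change was -0.81 (SE 0.25, edgeR adjusted p = 0.19), and DESeq2 gave an adjusted p of 0.086.

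Because Lgr5 and Ascl2 are both read as stem cell markers, their raw counts were set against each other within each library, a ratio chosen after the values were seen and given with no test. WT libraries on water had 2.13, 2.20, 1.19 and 1.27 Ascl2 counts per Lgr5 count, and WT libraries after DSS had 1.02, 1.66 and 1.12. KO replicates 2, 3 and 4 on water had 0.226, 0.100 and 0.281, and the KO libraries after DSS 0.267, 0.212 and 0.303. The library labelled KO water replicate 1 had 0.905, below every WT library but above the other KO libraries. No WT library had fewer Ascl2 than Lgr5 counts, and every library of the KO groups did. The raw counts are not scaled by exon length (10264 bases for Lgr5 and 1612 for Ascl2). Per kilobase of exon, Ascl2 had the higher mean in every group. The ratio restates the levels of the 2 genes given above and is not a separate result.

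**Figure D2:**
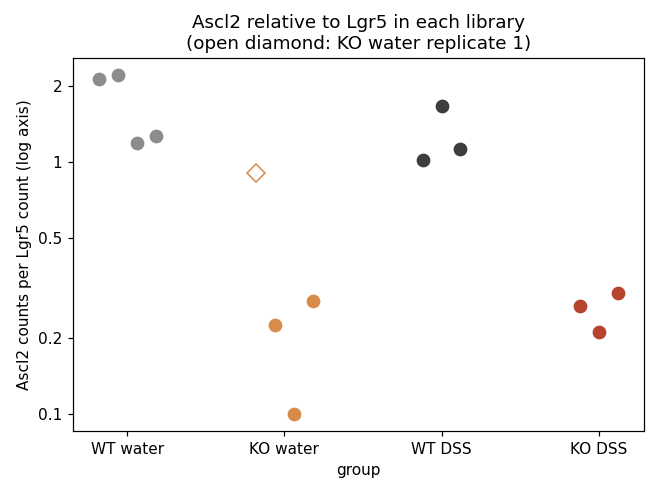
Raw Ascl2 counts per raw Lgr5 count (y axis, log scale) in each library by group (x axis). The 7 WT libraries lie between 1.02 and 2.20 and 6 of the 7 KO libraries between 0.100 and 0.303, with the library labelled KO water replicate 1 (open diamond) at 0.905.

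Slc12a2 is enriched in crypt base cells and encodes the basolateral Na-K-2Cl cotransporter that feeds chloride secretion. In the main edgeR fits between genotypes, with all libraries of the 2 groups, the count filter and no block, it was the only member to pass. It did so after DSS. On water it had 8210.25, 6709, 9465 and 6923 normalized counts in WT and 12979, 21366, 18148 and 12620.5 in KO. After DSS it had 8169, 6189.7 and 8643 in WT and 14224, 12431.5 and 12181 in KO. Again no KO library overlapped the WT libraries of its treatment, and the library labelled replicate 1 (12979) stood with the KO group. After DSS Slc12a2 was 1.69-fold higher in KO (log2 fold change 0.76, SE 0.14, edgeR adjusted p = 0.046). This edgeR call sat close to the threshold, and leaving out any 1 of the 6 libraries ended it, with adjusted p-values from 0.078 to 0.14. In the edgeR model of all 14 libraries the adjusted p was 0.59. DESeq2 on the same 6 libraries passed Slc12a2 with an adjusted p of 9.8e-06. On water the log2 fold change was 1.06 (SE 0.22, edgeR adjusted p = 0.15), and DESeq2 passed it with an adjusted p of 6.8e-04. Without the library labelled replicate 1 the log2 fold change on water was 1.16 (SE 0.23, edgeR adjusted p = 0.12).

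Prom1, which encodes the membrane glycoprotein CD133, had 4734, 3152, 3667 and 4994 normalized counts in WT on water and 7755, 7413 and 6098 in KO replicates 2, 3 and 4. The library labelled KO water replicate 1 had 2618, below every WT library. The log2 fold change on water was 0.53 (SE 0.29, edgeR adjusted p = 0.33), and 0.78 (SE 0.21, adjusted p = 0.16) without that library. After DSS Prom1 had 5268, 3580.1 and 4022 in WT and 6674, 5720.5 and 4981 in KO, with overlapping ranges and a log2 fold change of 0.44 (SE 0.16, edgeR adjusted p = 0.25).

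Lrig1, a membrane inhibitor of ErbB receptor signalling that marks quiescent crypt base cells, had 1944 to 2858 normalized counts in WT on water and 2365 to 4301 in KO. After DSS it had 2589 to 3231 in WT and 3408 to 3759 in KO, without overlap. Its log2 fold changes were 0.51 on water (SE 0.20, adjusted p = 0.20) and 0.27 after DSS (SE 0.11, adjusted p = 0.28, edgeR). Without the library labelled replicate 1 the value on water was 0.43 (SE 0.22, edgeR adjusted p = 0.33). Rgmb, a BMP co-receptor, had 1795 to 2393 in WT on water and 1485 to 1984 in KO, with a log2 fold change of -0.32 (SE 0.16, edgeR adjusted p = 0.27). Without the library labelled replicate 1, the KO libraries (1485, 1755 and 1768) lay below all WT libraries for Rgmb. After DSS the Rgmb groups could hardly be separated, with means of 1344 ± 49.6 and 1364 ± 70.3 (SD, n = 3).

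Sox9, a Wnt-responsive transcription factor of the crypt base, had a mean of 1823 ± 405 normalized counts in WT on water and 2227 ± 336 in KO (SD, n = 4), and 1673 ± 260.0 and 1840.5 ± 186 after DSS (SD, n = 3), differences that edgeR did not pass (adjusted p = 0.40 and 0.63). Cd44, a hyaluronan receptor and Wnt target, ranged on water from 661 to 2123 in WT and from 934 to 2436 in KO. This spread was wider than the difference between the group means (1416 and 1685). The 934 was that of the library labelled replicate 1. Without it the KO libraries had 1595 to 2436, and the log2 fold change went from 0.25 to 0.46 (SE 0.33, edgeR adjusted p = 0.48). After DSS the Cd44 log2 fold change was 0.42 (SE 0.19, edgeR adjusted p = 0.33), which became 0.22 without WT replicate 2 and 0.65 without WT replicate 3. Tnfrsf19, a Wnt target of the TNF receptor family, had 16 to 117 raw counts per library. Its log2 fold changes between genotypes (0.48 on water, SE 0.45, and 0.27 after DSS, SE 0.40) were near or below 1 SE. Without the library labelled replicate 1 the Tnfrsf19 value on water was 0.63 (SE 0.48). Cdca7, a gene of dividing crypt cells, had log2 fold changes of 0.01 on water (SE 0.21), or -0.14 without the library labelled replicate 1, and 0.06 after DSS (SE 0.12).

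**Figure D3:**
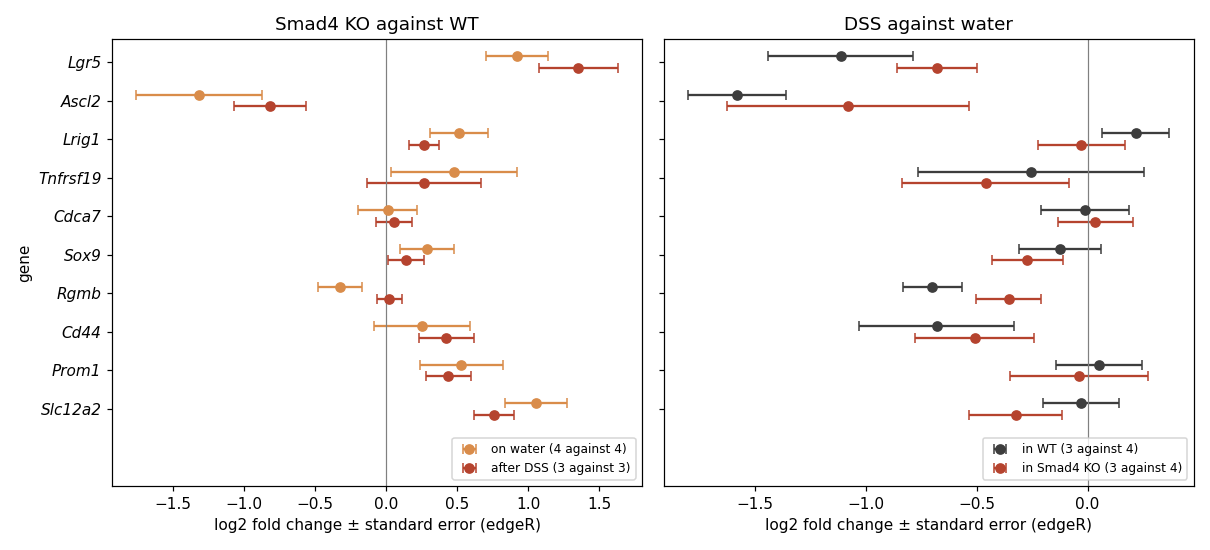
Log2 fold changes (x axis, edgeR) of the 10 genes (y axis) for Smad4 KO against WT (left) and for DSS against water (right), with standard errors as bars. Between genotypes Lgr5 and Slc12a2 are above 0 and Ascl2 below 0 under both treatments, and DSS goes with lower Lgr5 and Ascl2 values in both genotypes.

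Counted over the list, 8 of 10 members had a positive and 2 a negative log2 fold change on water. Of the positive values, that of Cdca7 turned negative without the library labelled replicate 1 (-0.14). With all libraries the median was 0.38 against -0.0071 over all 15127 genes tested. None was called by edgeR, which called 0.00661% of all genes in that comparison. At an unadjusted p below 0.05 there were 4 (Lgr5, Slc12a2, Ascl2 and Lrig1), beside 20.4% of all genes, and without replicate 1 again 4, with Prom1 in place of Lrig1, beside 18.0%. DESeq2 called 3 members (Lgr5, Slc12a2 and Ascl2), beside 5.08% of all genes, and a model of all 14 libraries called 2 (Lgr5 and Slc12a2), beside 8.44%. In the 13 libraries without replicate 1 edgeR called 4 (also Prom1 and Ascl2), beside 7.61%. After DSS 9 members had a positive and 1 a negative value, with a median of 0.27 against 0.0028. Without WT replicate 2 the median of the members was 0.15, and it was at most 0.37 when another library was left out. EdgeR called 1 member, beside 0.747% of all genes, and DESeq2 called 2, beside 3.3%. At an unadjusted p below 0.05 there were 5 (Lgr5, Slc12a2, Ascl2, Lrig1 and Prom1), beside 15.4%. On water, 2 members (Lgr5 and Slc12a2) lay higher in all KO libraries than in all WT libraries, as did 5.18% of all genes. After DSS, 3 lay higher in this way (Lgr5, Slc12a2 and Lrig1), beside 10.4% of all genes, and 1 lower (Ascl2), beside 11.4%. Lgr5 and Slc12a2 did so under both treatments, a pattern shown by 1.54% of all genes.

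The library labelled Smad4 KO water replicate 1 was mixed in its member levels. For Lgr5, Lrig1, Cdca7, Sox9 and Slc12a2 it lay above all WT water libraries. For Ascl2, Rgmb, Cd44 and Tnfrsf19 it lay within the range of WT, and for Prom1 below it. KO replicates 2, 3 and 4 stood above all WT libraries for 3 members (Lgr5, Prom1 and Slc12a2), beside 7.26% of all genes, and below all for 2 (Ascl2 and Rgmb), beside 7.66%.

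**Figure D4:**
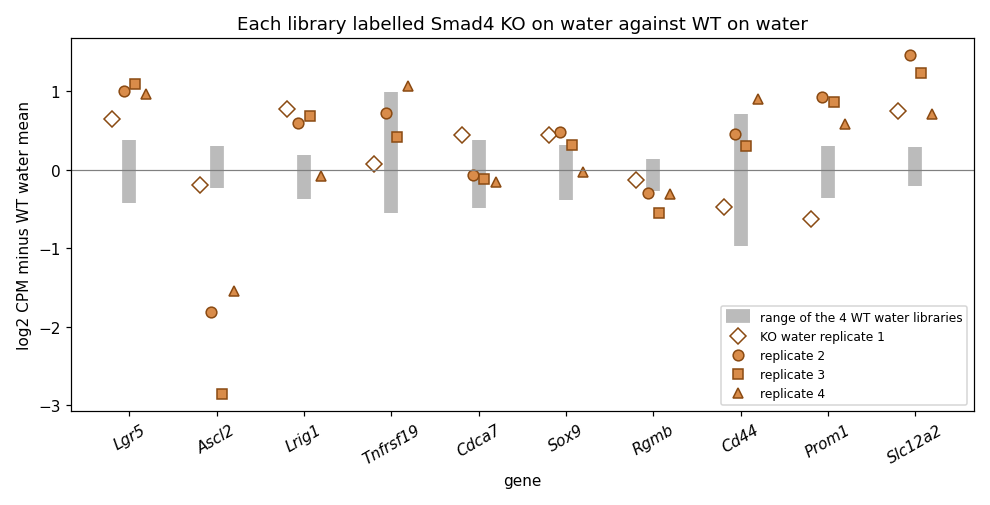
Log2 CPM of each gene (x axis) in each library labelled Smad4 KO on water, minus the WT water mean (y axis), with grey bars for the range of the 4 WT water libraries. The open diamond (replicate 1) lies apart from the other 3 libraries for Ascl2, Prom1 and Cdca7, among others. For Slc12a2 it lies among them, and for Lgr5 above all WT libraries but below the other 3.

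The library names carry letter prefixes whose meaning is not given, and these overlap with the groups. Values of Lgr5, Ascl2 and Slc12a2 within a shared prefix are given here. On water, WT replicate 3 shares its prefix with KO replicates 1 and 2, with Lgr5 at 269 against 324 and 416, Ascl2 at 319 against 293 and 94.3, and Slc12a2 at 9465 against 12979 and 21366. WT replicate 4 shares one with KO replicate 4, with Lgr5 at 225 against 403, Ascl2 at 285 against 113 and Slc12a2 at 6923 against 12620.5. After DSS, WT replicates 1 and 2 share theirs with all 3 KO libraries, with Ascl2 at 119 and 85.1 against 69.1, 50.3 and 74.2, Lgr5 at 117 and 51.2 against 259, 238 and 245, and Slc12a2 at 8169 and 6189.7 against 14224, 12431.5 and 12181. For these 3 genes each KO library named here lay on the same side of the WT libraries of its prefix and treatment. KO water replicate 3 has a prefix that no WT library has.

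DSS was set against water in each genotype. These comparisons share their libraries with those between genotypes. In WT, 3 d of DSS went with lower levels of Lgr5, Ascl2 and Rgmb, whose 3 DSS libraries all lay below the 4 water libraries, as those of 11.6% of all genes did. The log2 fold changes were -1.58 for Ascl2 (SE 0.22, edgeR adjusted p = 0.059), -1.11 for Lgr5 (SE 0.33, edgeR adjusted p = 0.10) and -0.70 for Rgmb (SE 0.13, edgeR adjusted p = 0.085). In folds, Ascl2 was 2.99-fold, Lgr5 2.16-fold and Rgmb 1.62-fold lower. EdgeR called none of the 15127 genes in this comparison (0.0%), though 3662 had an unadjusted p below 0.05 (24.2%), among them the same 3 members. DESeq2 called 11.7% of all genes and 3 of the members, which were Ascl2 (adjusted p = 2.7e-08), Rgmb (2.7e-04) and Lgr5 (0.015). The other 7 members had log2 fold changes between -0.68 (Cd44, SE 0.35) and 0.22 (Lrig1, SE 0.15). Slc12a2 (-0.03, SE 0.17), Cdca7 (-0.01, SE 0.20) and Prom1 (0.05, SE 0.19) had values near 0.

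In the Smad4 KO epithelium the DSS libraries carry a name prefix that no water library has, so DSS and prefix cannot be told apart. The test of the difference between DSS responses uses the same libraries. In KO, Lgr5 had 324 to 443 normalized counts on water and 238 to 259 after DSS, again with no overlap. Its log2 fold change was -0.68 (SE 0.18, edgeR adjusted p = 0.56). Without the library labelled replicate 1 the Lgr5 log2 fold change was -0.76 (SE 0.18, edgeR adjusted p = 0.57). The Lgr5 level of the KO epithelium after DSS was 247 ± 10.7 (SD, n = 3), beside 211 ± 48.7 (SD, n = 4) in WT on water. Rgmb also lay lower in every DSS library (1283 to 1408) than in every water library (1485 to 1984) of the KO group, with a log2 fold change of -0.36 (SE 0.15, edgeR adjusted p = 0.76). Over all genes, 4.28% lay lower after DSS in KO in this way. For Ascl2 the log2 fold change was -1.08 (SE 0.55, edgeR adjusted p = 0.76) with the library labelled replicate 1 and -0.38 (SE 0.41, adjusted p = 0.90) without it. Neither edgeR, which called 0.00661% of all genes, nor DESeq2, which called 0.469%, called a member here, and 2 members (Lgr5 and Rgmb) had an unadjusted p below 0.05, beside 6.37% of all genes. Without the library labelled replicate 1 these were Lgr5 and Cd44 (log2 fold change -0.71, SE 0.20), beside 6.45% of all genes. The DSS libraries then lay below the water libraries for 3 members (Lgr5, Rgmb and Cd44), beside 6.47% of all genes, and above them for 1 (Cdca7), beside 7.25%. The test of the difference between the DSS responses called no member either (0.00661% of all genes with edgeR and 0.0529% with DESeq2), and 0 members had an unadjusted p below 0.05, beside 7.5% of all genes. Its largest value was that of Ascl2, 0.50 (SE 0.61, edgeR adjusted p = 0.84), followed by Lgr5 with 0.43 (SE 0.37, edgeR adjusted p = 0.76). Without replicate 1 the Ascl2 difference was 1.20 (SE 0.43, edgeR adjusted p = 0.58), and 2 members (Ascl2 and Rgmb) had an unadjusted p below 0.05, beside 8.43% of all genes.

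The genes whose log2 CPM ran most like Lgr5 over the 14 libraries, among 11569 genes with a mean of at least 50 normalized counts, were Smoc2 (Pearson r = 0.945), Ptpn14 (0.923), Wnk2 (0.898), Bcl2 (0.880) and Ptpro (0.841). Smoc2, a secreted matricellular protein and a crypt base marker, had means of 962 and 1780 normalized counts in WT and KO on water and 543 and 1568 after DSS. The genes most like Ascl2 were Dmpk (0.940), Id2 (0.931), 1190002H23Rik (0.931), H2afv (0.914) and Ephb3 (0.910). Id2, an inhibitor of helix-loop-helix factors that BMP signals induce, had means of 299.9 and 191 in WT and KO on water and 191 and 93.0 after DSS. Ephb3, a Wnt-responsive receptor that holds cells at the crypt base, had means of 1496 and 1034 on water and 892 and 676 after DSS. The 14 points come from 4 groups that differ in genotype and treatment, and from libraries that differ in depth and mitochondrial share, and the correlations are descriptions.

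Other genes of the crypt were read as lists. Of 19 other crypt base genes, 11 had a positive and 8 a negative log2 fold change between KO and WT on water (median 0.12), as did 14 and 5 after DSS (median 0.13). EdgeR called 1 of them, Smoc2, which was higher in KO after DSS (log2 fold change 1.53, SE 0.17, adjusted p = 0.0048, with 391 to 649 normalized counts in WT and 1466 to 1625 in KO). On water its log2 fold change was 0.89 (SE 0.18, edgeR adjusted p = 0.15). DESeq2 called Smoc2 on water too (adjusted p = 0.0037), and after DSS Smoc2 and Mex3a (log2 fold change 0.87, DESeq2 adjusted p = 0.042). Of all genes, edgeR called 0.747% after DSS, and DESeq2 5.08% on water and 3.3% after DSS. Axin2, Rnf43 and Znrf3, targets of the Wnt pathway, were called between genotypes by neither tool. None of the 4 reserve stem cell labels (Bmi1, Hopx, Tert and Clu) and none of the 15 proliferation genes was called by edgeR in any comparison. DESeq2 called Bmi1 higher in KO on water (log2 fold change 0.76, adjusted p = 0.027), and the proliferation gene Ube2c lower after DSS in WT (-0.63) and in KO (-0.79). In DSS against water, 13 of the 19 other crypt base genes were lower in each genotype, with medians of -0.33 in WT and -0.08 in KO, and edgeR called none. DESeq2 called 4 in WT, beside 11.7% of all genes. These were Aqp4 higher (log2 fold change 1.23) and Smoc2 (-0.83), Axin2 (-0.78) and Ephb3 (-0.75) lower, the last named after its value was seen. Between genotypes the proliferation list had medians of 0.13 on water and 0.11 after DSS on the log2 scale.

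The surface colonocyte list ran the other way after DSS. Of its 12 tested genes 10 had a negative value (median -0.21 on the log2 scale). EdgeR called 4 of these, beside 0.747% of all genes. Car4, a carbonic anhydrase of the colonocyte brush border, had a log2 fold change of -1.03 (SE 0.19, edgeR adjusted p = 0.046). The water channel gene Aqp8 had 1854 ± 444 normalized counts in KO and 3718 ± 601 in WT (SD, n = 3, edgeR adjusted p = 0.043). The keratin gene Krt20 had a log2 fold change of -0.85 (SE 0.14, edgeR adjusted p = 0.032). The remaining gene was Ceacam20, named after its value was seen, with -0.60 (SE 0.10, edgeR adjusted p = 0.042). DESeq2, which called 3.3% of all genes after DSS, called the same 4 and also Slc37a2 (-0.87, named after its value was seen). On water 9 of the 12 were lower in KO, with a median of -0.50, and edgeR called none. DESeq2 called Car1 (-0.98) and Fabp2 (-0.96) lower, beside 5.08% of all genes. Of 8 genes of crypt base secretory cells, none was called by edgeR in any comparison of all libraries. DESeq2 called Reg4 lower in KO on water (log2 fold change -1.32, adjusted p = 1.6e-04), beside 5.08% of all genes. After DSS in WT it called Reg4 (-1.48) and Spdef (-1.03) lower, beside 11.7%. Without the library labelled replicate 1, when edgeR called 0.0859% of all genes on water, 1 of them was called lower in KO, Reg4, which marks the deep crypt secretory cells beside the stem cells (log2 fold change -1.60).

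**Figure D5:**
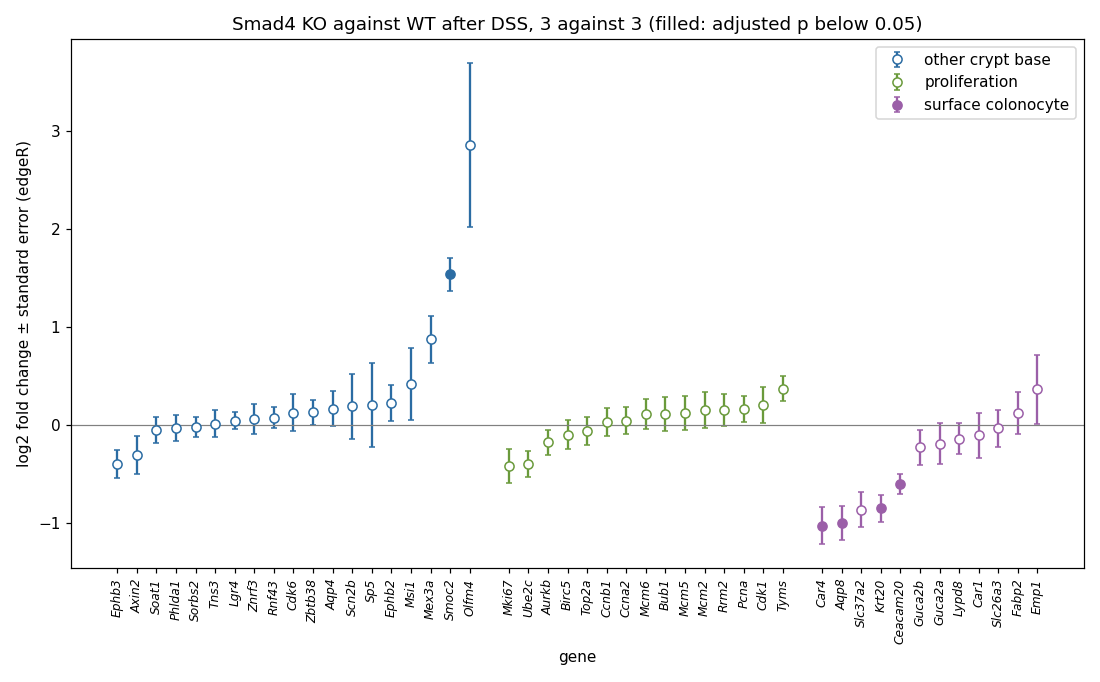
Log2 fold changes (y axis, edgeR, with standard errors) of Smad4 KO against WT after DSS for the other crypt base genes, the proliferation genes and the surface colonocyte genes (x axis). Filled points passed an adjusted p of 0.05, which are Smoc2 above 0 and Car4, Aqp8, Krt20 and Ceacam20 below it.

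Markers of cells outside the epithelium were scarce, and those of fibroblasts moved with genotype. The 8 fibroblast markers summed to 31.1 to 85.6 normalized counts in WT and 101 to 517 in KO on water, and to 21.2 to 45.5 in WT and 154 to 281 in KO after DSS. Of the 5 tested, all 5 were higher in KO under both treatments, though Mmp2 after DSS only by 0.15 on the log2 scale (SE 0.49). Genes this scarce can pass the count filter through the KO libraries, where the sums were higher. Their shared direction may thus come in part from the filter and is not a test. EdgeR called 3 after DSS, beside 0.747% of all genes. These were Col3a1, Col1a2 and Col1a1, named after their values were seen. DESeq2 called the same 3 after DSS, beside 3.3% of all genes, and Dcn on water, beside 5.08%. Pdgfra, Lum and Pdpn did not pass the count filter, and Lum and Pdpn had no count in WT after DSS. The study reports barely detectable Pdgfra transcripts and reads this as a lack of contamination by pericryptal fibroblasts. The library labelled KO water replicate 1 had a fibroblast marker sum of 234, within the KO range. Lgr5 and Slc12a2 had their higher levels in the groups with the higher sums, and the part of these cells in the members' values was not tested. The sums of smooth muscle (238 to 447), endothelial (82.8 to 212), leukocyte (129 to 521) and glial markers (10.5 to 109) overlapped between genotypes under both treatments. The 8 epithelial markers summed to 334381 to 345056 in WT and 310315 to 328290 in KO after DSS.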

How the data were processed

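RNA was sequenced in 14 libraries. For alignment the authors used HISAT2 and build mm9, and featureCounts gave the deposited counts, which are whole numbers for 37680 genes with no normalization. Of these genes 14001 had no count, and 37310 were matched to GENCODE M1, which gave positions and exon lengths. Libraries were grouped by their labels. The labels do not say that the replicates are separate mice, so p-values measure the spread between these libraries. No 2 libraries were copies.

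A filter of 10 or more counts in 3 or more of the libraries left 15127 genes, which entered the quasi-likelihood test of edgeR 4.0.16 (TMM) in R 4.3.3. P-values were adjusted over all of them by Benjamini-Hochberg, with calls below 0.05. Since the study tested pairwise and 1 library goes against its label, only the 2 groups compared entered each fit, and all 14 libraries the test of the difference between DSS responses. DESeq2 1.42.0, models of 14 or 13 libraries, RLE normalization, no count filter, blocks of replicate number and name prefix, the mitochondrial share as a covariate and each library left out were alternatives. The tests were run on simulated data with known changes.

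The members and lists were chosen with earlier results of these data known. The 10 members are named in each comparison. Of other lists the rule was up to 3 called genes with the largest log2 fold change and a mean of at least 50 normalized counts. Some called genes outside this rule are also named. The lists were other crypt base genes, reserve stem cell labels, proliferation, crypt base secretory cells, surface colonocyte, epithelium, fibroblast, smooth muscle, endothelium, leukocyte and glia. Of 110 listed genes 109 were matched. Correlations used log2 CPM with a prior count of 2. Figures and tables were made in Python 3.11.15. Total counts limit the precision of the low genes most, since Tnfrsf19 had 16 counts in its lowest library.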

Additional observations from a re-analysis of the deposited data

Results flagged for a closer look

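Of 20 groups of 4 libraries checked for a library far from the others, which are the 10 members in WT and in Smad4 KO on water, 1 stood out, and chance gives about 1 in 20. Cdca7 had 1658 normalized counts in the library labelled Smad4 KO water replicate 1 and 1099 to 1173 in the other 3 libraries of that group. The gap to the nearest of them was 0.868 of the range of the group, above the limit of 0.829 for 4 values. The highest WT library on water had 1588.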

How the results depend on the processing

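Of 380 member values under alternatives other than leaving out a library, 342 kept their direction and their side of the threshold. Genes called (members called in brackets) between genotypes on water numbered 1 (0) as reported, 768 (3) with DESeq2, 1276 (2) and 1151 (4) in the models of 14 and 13 libraries, 55 (1) without a count filter, 473 (3) with the replicate block and 296 with the prefix block. After DSS they numbered 113 (1) as reported, 499 (2) with DESeq2, 2 (0) and 8 (0) in the models of 14 and 13 libraries, 345 (2) without a filter, 57 (0) with the replicate block, 42 (0) with the prefix block and 60 (0) with the mitochondrial share. For DSS in WT they numbered 0 (0) as reported, 1777 (3) with DESeq2, 457 (2) without a filter, 54 (1) with the replicate block and 2 with the prefix block. For DSS in KO they numbered 1 (0) as reported, 71 with DESeq2, 10 and 5 in the models of 14 and 13 libraries, 19 without a filter, 15 with the replicate block and 2 with the mitochondrial share. For the difference of DSS responses they numbered 1 as reported, 8 with DESeq2 and 2 without a filter. The prefix block could not be fitted for DSS in KO, where water and DSS libraries share no prefix.

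Leaving out 1 library gave 1 to 1740 genes (0 to 3 members) on water, 27 to 96 (0 to 1) after DSS, 0 to 418 (0 to 2) for DSS in WT, 1 to 3 for DSS in KO and 1 to 5 for the difference. The 1740 came without KO water replicate 4, when Lgr5, Lrig1 and Slc12a2 passed (edgeR adjusted p = 0.035, 0.033 and 0.025), and 13 without KO water replicate 1. After DSS, leaving out WT replicate 2, 3 or KO replicate 1, 2 or 3 gave 54, 42, 56, 27 and 31 genes. For DSS in WT the 418 came without WT water replicate 2, when Ascl2 and Rgmb passed, and 25 without WT water replicate 4, when Ascl2 did. The causes were not tested.

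Among the log2 fold changes that reversed, Cdca7 on water was -0.15 in the 13 libraries and -0.16 with the mitochondrial share, and with that share -0.046 after DSS and -0.047 for DSS in KO. With it Rgmb after DSS was -0.0007, Slc12a2 for DSS in WT 0.031 and Prom1 for DSS in KO 0.025, and Prom1 was 0.10 with the replicate block. In the 13 libraries Lrig1 for DSS in KO was 0.059 and Cd44 in the difference -0.031. With the prefix block Cdca7 was -0.12 and Sox9 0.025 in the difference. Leaving out 1 library moved Cdca7 from -0.142 to 0.146 on water, from -0.075 to 0.131 after DSS, from -0.148 to 0.125 for DSS in WT, from -0.0243 to 0.195 for DSS in KO and from -0.0931 to 0.201 in the difference. It moved Tnfrsf19 from -0.0711 to 0.529 after DSS, from -0.51 to 0.248 for DSS in WT and from -0.709 to 0.05 in the difference, and Prom1 from -0.122 to 0.167 for DSS in WT, from -0.286 to 0.114 for DSS in KO and from -0.344 to 0.0779 in the difference. Rgmb after DSS ran from -0.0015 to 0.0685, Slc12a2 for DSS in WT from -0.125 to 0.103, Lrig1 for DSS in KO from -0.186 to 0.0666 and Cd44 in the difference from -0.0992 to 0.402.

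The replicate numbers showed no general pairing of the libraries. Over 19 pairs with the same number, deviations from group means correlated between -0.081 and 0.348. Their median was -0.0234, against 0.00185 for other pairs. The value of 0.348 was that of WT and KO water replicates 4, which share a prefix. A median over all groups cannot settle whether libraries of particular groups are paired. With the replicate block Lgr5, Ascl2 and Slc12a2 passed on water (edgeR adjusted p = 0.047, 0.047 and 0.043), Slc12a2 after DSS did not (0.066), and Ascl2 did for DSS in WT (0.034).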
